A study of Saccharomyces cerevisiae with 10 samples.

Results

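The 10 genes described here encode 5 PIR proteins (*PIR1*, *PIR3*, *PIR5*, *HSP150* and *CIS3*) and 5 further secreted proteins of the cell wall of *Saccharomyces cerevisiae* that are commonly used as targets of the cell wall integrity pathway (*PST1*, *CRH1*, *SED1*, *CWP1* and *NCW2*). They were chosen by their systematic gene names and not by a cutoff on a measured value, but with earlier results of these data known. They are 10 of the 6607 genes in the count table. All 10 had enough counts to be tested, as did 5856 genes in all.

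Transcript levels were measured by RNA-seq in 10 yeast cultures of 3 strains, and the study asked how cells adapt to a nonsense mutation in *SUP35*, the gene for the translation termination factor eRF3. Every strain lacked the chromosomal *SUP35* gene, which was replaced with HIS3MX, and lived from a plasmid copy. The first group, SUP35 at stage 1, was strain U-14-D1690 with wild-type *SUP35* on a *URA3* plasmid (3 cultures). The second, SUP35 at stage 3, was strain L-14-D1690, in which plasmid shuffling had replaced that plasmid with a *LEU2* plasmid carrying the same wild-type allele (4 cultures). The third, sup35-218 at stage 3, was strain 218-L-14-D1690, which carried the nonsense allele *sup35-218* on a *LEU2* plasmid as its only source of the factor (3 cultures). The labels give the same background to all strains: *MATa*, with the nonsense markers *ade1-14(UGA)* and *trp1-289(UAG)* and the further alleles *his3-d200*, *lys2* and *ura3-52* and a mutant allele of *LEU2*. They name pRSU1-218 as the mutant plasmid and pRSU2 for both wild-type groups, whereas the study's methods give a *LEU2* plasmid, pRSU1, for L-14-D1690. The labels name SC medium for all cultures, and the methods give SC lacking uracil or leucine according to the plasmid. The methods speak of biological replicates but do not say whether the cultures of a group came from separate clones, so p-values measure only the spread between these cultures, which may be smaller than that between clones. The mutant and the stage 3 wild-type groups differed in the allele. The paper also cites its authors' earlier finding of more plasmid copies in sup35-218 cells, so allele and plasmid copy number cannot be told apart. Any comparison with stage 1 also changed the plasmid marker and the shuffling step, which cannot be told apart either.

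The yeast wall is a network of glucan and chitin in which mannoproteins are held by covalent bonds. PIR proteins (proteins with internal repeats) are cut by the Kex2 protease, carry O-linked mannose and are joined directly to glucan through their repeats, while most other wall proteins are first held in the membrane by a GPI anchor and then moved to glucan. Damage to the wall is sensed by Wsc1, Mid2 and related membrane proteins, which act through Rho1, Pkc1 and a kinase cascade ending in Slt2. Slt2 activates the transcription factor Rlm1, and genes of PIR and GPI proteins are among its known targets. Several of the same genes are also known to be read in stress through Msn2 and Msn4.

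The depth was 3044096 to 4861009 counts per culture (median 3516164.5). *SUP35* stood at 406 to 481 normalized CPM (counts scaled to a common library total) at stage 1, at 505 to 809 in the stage 3 wild type and at 1833 to 2185 in the mutant, and *URA3* was at 829 or more only at stage 1 (71.9 to 94.4 CPM in the stage 3 wild type and 59.2 to 79.8 in the mutant). pRSU2 is the plasmid of the initial strain in the methods, so the low *URA3* level of the stage 3 wild type goes against that label and goes with the *LEU2* plasmid of the methods. *LEU2* itself was at 1434 to 1853 CPM at stage 1 and at 6453 to 7221 in the mutant. It was at 1733 to 2743 in the stage 3 wild type, which overlapped with stage 1 through replicate 3. *HIS3*, given as *his3-d200* in the labels, was counted at 489 to 529 CPM at stage 1. It was at 360 to 638 in the stage 3 wild type and at 146 to 247 in the mutant, and the source of these reads was not tested. The markers went against the label *MATa*: α-cell genes had a higher summed level than a-cell genes in every group. Transcripts of both mating types were still counted in every culture. Per kilobase, the α-factor gene *MF(ALPHA)1* had 901 to 1662 CPM over all cultures. The a-factor gene *MFA1* had 353 to 673 at stage 1, 49.5 to 192 in the stage 3 wild type and 22.8 to 43.3 in the mutant. Whether the label or the strain differs was not tested. Summed over 6 a-cell genes, the level was 229 to 547 CPM at stage 1. It was 95.9 to 204 in the stage 3 wild type and 99.99 to 118 in the mutant. The a-cell sum was thus highest at stage 1, and both stage 3 groups overlapped. For 4 α-cell genes the sums were 1424 to 1830, 1384 to 1680 and 753 to 1042 CPM in the same order. The α-cell sum was lowest in the mutant, and the wild-type groups overlapped. *SAG1*, the α-agglutinin of the wall, was at 124 to 132 CPM in the mutant. Their part in the results below was not tested.

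The genes lie partly in pairs (build R64, positions from the count table, which match the reference annotation). *PIR1* (YKL164C, chrXI:141794-142819, minus strand) and *PIR3* (YKL163W, chrXI:144401-145378, plus strand) are neighbours that point away from each other across 1581 bases. *PIR5* (YJL160C, chrX:117962-118825, minus strand) and *HSP150* (YJL159W, chrX:120449-121690, plus strand) are likewise divergent across 1623 bases, and *CIS3* (YJL158C, chrX:122265-122948, minus strand) follows *HSP150*, facing it. The other 5 stand apart: *PST1* (YDR055W, chrIV:563527-564861, plus), *CRH1* (YGR189C, chrVII:876669-878192, minus), *SED1* (YDR077W, chrIV:600793-601809, plus), *CWP1* (YKL096W, chrXI:261132-261851, plus) and *NCW2* (YLR194C, chrXII:540809-541573, minus). No other annotated feature overlaps any of the 10.

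The PIR genes resemble one another, which matters for reads counted on them. Over their aligned coding bases *PIR1* was 81.4% identical to *HSP150* and 79.2% to *PIR3*, *HSP150* was 78.9% identical to *CIS3*, and *PIR5* was the most distant, at 64.9% to 69.5% with each of the other 4. Repeats were clearest in the DNA of *PIR1*, *HSP150* and *PIR3*. *PIR1* matched itself at 49.2% of positions when shifted by 57 bases, and *HSP150* at 45.0% with the same shift. *PIR3* did so at 44.7% with a shift of 108 bases. Their medians over all shifts from 30 to 150 bases were 23.1% to 24.1%. At their best shifts *CIS3* and *PIR5* reached only 32.1% and 30.9%. *PST1*, *CRH1*, *CWP1* and *NCW2* lay between 30.4% and 34.1%, and *SED1*, not a PIR gene, reached 41.3%. The longest identical runs between any of the 5 PIR genes were 81 bases in *PIR1* (chrXI:142701-142781) and *PIR3* (chrXI:144439-144519) and 65 bases in *HSP150* (chrX:121451-121515) and *CIS3* (chrX:122440-122504). They are shown, from the RefSeq R64 sequence, because they bound how far a read can be shared without a mismatch:
PIR1_PIR3: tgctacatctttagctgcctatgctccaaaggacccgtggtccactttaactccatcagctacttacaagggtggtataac
HSP150_CIS3: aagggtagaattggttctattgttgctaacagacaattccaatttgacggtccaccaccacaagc
Both are shorter than a 150-base read, and every 150-base window of each of the 10 genes occurred once in the genome. Only exact matches in the reference were searched, so near matches and reads shortened by trimming were not examined.

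Upstream sequences were searched over 600 bases before each start codon, on both strands, for 3 short motifs. CTA followed by any 4 bases and TAG occurred upstream of 5 of the 10 genes and of 10.8% of all 6571 genes searched. It is a loose form of the site bound by Rlm1 and is called the Rlm1 core here. Binding was not tested. AGGGG, read by Msn2 and Msn4, occurred upstream of 7 of the 10, all but *PST1*, *CRH1* and *NCW2* (39.5% of all genes). CGCGAAA, read by Swi4 in the SBF complex, occurred upstream of 1, *CWP1* (6.15%). No matches of different motifs overlapped. The 6 matches to the Rlm1 core are given with 10 bases on either side, in the direction of the gene, with the match in capitals:
PIR3: gattagcaaaCTAATTATAGatcaaaggcc
HSP150_first: acattttgagCTAAATTTAGattttggtca
HSP150_second: tattccttttCTAACCCTAGtacaataata
PST1: ttacgagtctCTAAAAATAGcgtaggcaca
SED1: gcatatatcgCTAAAATTAGccatcagaac
CWP1: tacgtcataaCTAAAAATAGcgttagccac
They begin 280 bases before the start codon of *PIR3* (chrXI:144111-144140), 223 and 28 before that of *HSP150* (chrX:120216-120245 and chrX:120411-120440), 305 before *PST1* (chrIV:563212-563241), 480 before *SED1* (chrIV:600303-600332) and 386 before *CWP1* (chrXI:260736-260765). *PST1* and *CWP1* share the same 10 letters. The middle 4 bases are A or T in every match except the second of *HSP150*, which has ACCC there. No match was found in the windows of *PIR1*, *PIR5*, *CIS3*, *CRH1* and *NCW2*, which says only that these letters are not in those 600 bases. The window of *NCW2* runs into its neighbour, 363 bases away.

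**Figure D1:**
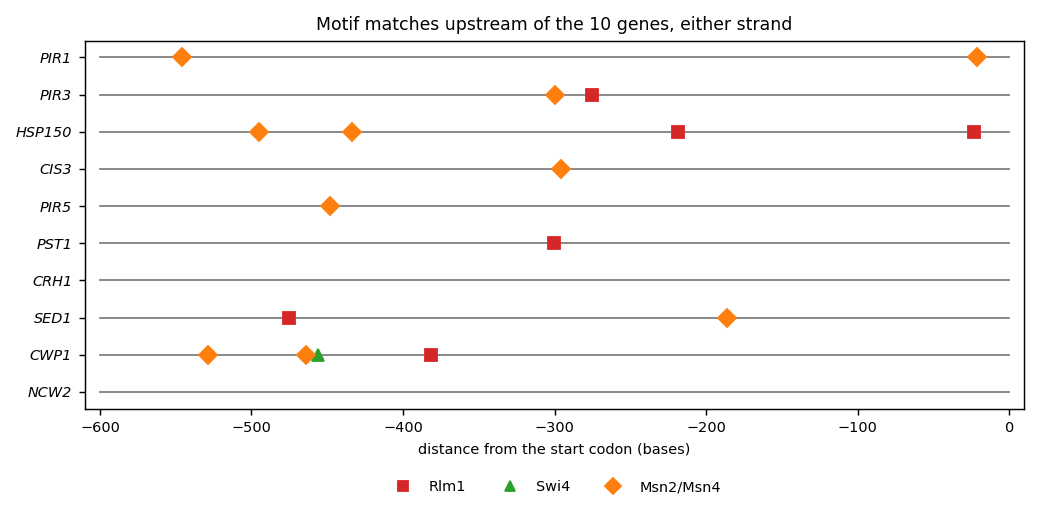
Matches to the 3 motifs in the 600 bases before the start codon of each of the 10 genes, on both strands. The horizontal axis is the distance from the start codon in bases, each row is a gene and each colour a motif. The Rlm1 core is marked in 5 of the 10 rows, once in 4 of them and at 2 places for *HSP150*.

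The 2 divergent PIR pairs are shown from 300 to 101 bases before each start codon, because *PIR5* moved against the other 3 genes. Capitals mark matches to the 3 motifs:
PIR1: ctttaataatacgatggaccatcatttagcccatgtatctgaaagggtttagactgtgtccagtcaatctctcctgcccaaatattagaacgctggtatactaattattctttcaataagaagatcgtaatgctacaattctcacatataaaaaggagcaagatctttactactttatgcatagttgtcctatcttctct
PIR3: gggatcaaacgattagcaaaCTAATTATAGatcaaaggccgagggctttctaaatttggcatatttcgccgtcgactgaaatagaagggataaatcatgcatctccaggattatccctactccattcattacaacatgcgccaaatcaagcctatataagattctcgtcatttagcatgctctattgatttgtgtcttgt
PIR5: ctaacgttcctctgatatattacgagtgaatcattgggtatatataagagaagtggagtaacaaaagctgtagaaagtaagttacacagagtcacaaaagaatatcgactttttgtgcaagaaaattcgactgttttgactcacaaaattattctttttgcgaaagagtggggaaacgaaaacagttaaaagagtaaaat
HSP150: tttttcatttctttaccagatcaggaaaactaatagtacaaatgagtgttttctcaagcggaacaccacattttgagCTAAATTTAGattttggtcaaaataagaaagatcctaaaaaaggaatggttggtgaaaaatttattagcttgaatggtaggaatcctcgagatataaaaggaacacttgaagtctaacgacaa
The windows are chrXI:142920-143119 (minus strand), chrXI:144101-144300 (plus), chrX:118926-119125 (minus) and chrX:120149-120348 (plus). In this stretch *PIR3* and *HSP150* each hold 1 match to the Rlm1 core, and *PIR1* and *PIR5* hold 0 matches to any of the 3.

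In sup35-218 cells, 8 of the 10 genes were higher and 1, *PIR5*, was lower than in SUP35 cells at the same stage. A gene counts as changed here when the adjusted p of edgeR's quasi-likelihood test (Benjamini-Hochberg over 5856 genes) was under 0.05 and the log2 fold change over 0.5 in size, a rule that 10.7% of all genes met upward, 12.6% downward and 23.3% in either direction. The remaining gene, *CIS3*, had an adjusted p of 0.0126 in that test with a log2 fold change of 0.38, below the size required. The median log2 fold change of the 10 was 0.75 against -0.01 over all genes, and their median size was 0.92 against 0.28. None of the 10 overlapped between these groups, which held for 43.7% of all genes. CPM are shares of a library, and in bulk cultures fewer cells of a kind and less RNA per cell cannot be told apart. The levels of each gene in the 10 cultures follow, in the order of replicate numbers, beginning with the PIR family.

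*PIR1* encodes a PIR protein of the wall. It was at 325, 315 and 293 CPM at stage 1, at 283, 282, 275 and 226 in the stage 3 wild type and at 669.5, 598 and 535 in the mutant. The mutant cultures were all above the others, the stage 3 wild type all below stage 1, and replicate 4 of the stage 3 wild type stood apart from its group. *PIR1* rose 2.25-fold in the mutant against the stage 3 wild type (log2 fold change 1.17 ± 0.11 SE, edgeR adjusted p = 9.86e-06) and 1.93-fold against stage 1 (0.95 ± 0.12, edgeR adjusted p = 3.43e-05). Its log2 fold change between the wild-type groups was -0.22 (95% interval -0.47 to 0.02), which did not pass the test (edgeR adjusted p = 0.165).

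*PIR3*, its divergent neighbour, encodes a related protein. It was at 223, 228 and 244 CPM at stage 1, at 401, 285, 261 and 202 in the stage 3 wild type and at 978, 806 and 731 in the mutant. Every mutant culture was above every other culture, while the stage 3 wild type spread widely and overlapped with stage 1. *PIR3* rose 2.92-fold against the stage 3 wild type (log2 fold change 1.54 ± 0.18 SE, edgeR adjusted p = 3.62e-05) and 3.62-fold against stage 1 (1.85 ± 0.20, edgeR adjusted p = 7.87e-06), the largest increase among the 10 genes in both comparisons. The wild-type groups differed by 0.31 on the log2 scale (interval -0.09 to 0.70), not past the test (edgeR adjusted p = 0.233). The ratio of *PIR3* to *PIR1* counts was 0.686 to 0.835 at stage 1, 0.896 to 1.41 in the stage 3 wild type and 1.35 to 1.46 in the mutant. The ratio in the mutant overlapped with that in the stage 3 wild type (two-sided exact permutation p = 0.114, adjusted p = 0.114 over 6 tests of ratios), and 3 cultures against 3 cannot give a p below 0.10.

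*HSP150*, also called *PIR2*, encodes a heat-inducible PIR protein that is in part released into the medium. It was at 2496, 2717 and 2350.0 CPM at stage 1, at 1977, 1932, 1675 and 1331 in the stage 3 wild type and at 3802, 3624 and 3120.1 in the mutant. The 3 groups did not overlap, with the stage 3 wild type lowest and the mutant highest. *HSP150* rose 2.03-fold in the mutant against the stage 3 wild type (log2 fold change 1.02 ± 0.15 SE, edgeR adjusted p = 0.000192). Against stage 1 its log2 fold change was 0.48 ± 0.16 (edgeR adjusted p = 0.0269), just under the size required, and it reached 0.51 to 0.60 and was called when any 1 of 5 cultures was left out (stage 1 replicate 2, stage 3 wild-type replicate 1 or 2, mutant replicate 2 or 3). *HSP150* fell between the wild-type groups by 0.54 ± 0.15 on the log2 scale (edgeR adjusted p = 0.018). That call was lost without stage 1 replicate 1 (-0.55, edgeR adjusted p = 0.0502) or replicate 2 (-0.49, 0.0815) and without replicate 4 of the stage 3 wild type (-0.44, 0.0388).

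*CIS3*, also called *PIR4*, encodes a PIR protein that faces *HSP150* on the chromosome. It was at 105, 90.1 and 89.7 CPM at stage 1, at 217, 234, 187 and 215 in the stage 3 wild type and at 314, 266 and 254 in the mutant. The groups again did not overlap, but here the step between the wild-type groups was the larger one. *CIS3* rose 2.24-fold from stage 1 to the stage 3 wild type (log2 fold change 1.17 ± 0.11 SE, edgeR adjusted p = 1.75e-05), the 25th largest increase among 5856 genes. In the mutant it stood 2.92-fold above stage 1 (1.55 ± 0.12, edgeR adjusted p = 5.61e-07) and 0.38 on the log2 scale above the stage 3 wild type (interval 0.15 to 0.61).

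*PIR5*, the least similar of the 5 in sequence, went the other way. It was at 120.1, 114 and 123 CPM at stage 1, at 50.8, 42.5, 45.2 and 30.9 in the stage 3 wild type and at 12.4, 10.2 and 7.53 in the mutant. The raw counts behind these values were 380 to 551, 101 to 193 and 30 to 44 per culture, so the mutant values are the least precise. The 3 groups did not overlap and fell in the order stage 1, stage 3 wild type, mutant. *PIR5* was 76.5% lower in the mutant than in the stage 3 wild type (log2 fold change -2.09 ± 0.20 SE, edgeR adjusted p = 8.16e-06) and 91.6% lower than at stage 1 (-3.57 ± 0.19, edgeR adjusted p = 3.82e-08). It was 64.2% lower in the stage 3 wild type than at stage 1 (-1.48 ± 0.15, edgeR adjusted p = 2.11e-05). Among the log2 fold changes of 5856 genes these were the 16th, 7th and 28th lowest. The ratio of *HSP150* to *PIR5* counts, neighbours read in opposite directions, was 19.1 to 23.9 at stage 1, 37.0 to 45.5 in the stage 3 wild type and 307 to 415 in the mutant. The ratios did not overlap between groups (two-sided exact permutation p = 0.0286 for the mutant against the stage 3 wild type, the smallest that 4 against 3 cultures allow, adjusted p = 0.0857 over the 6 tests).

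*PST1* encodes a GPI protein of the Sps2 and Ecm33 family that is secreted when wall-less cells rebuild their wall. It was at 288.2, 315 and 334 CPM at stage 1, at 530.5, 415, 434 and 305 in the stage 3 wild type and at 1168, 1116 and 730.3 in the mutant. The mutant cultures were above all others, although replicate 3 was well below the other two, and the wild-type groups overlapped through replicate 4 at stage 3. *PST1* rose 2.39-fold against the stage 3 wild type (log2 fold change 1.25 ± 0.18 SE, edgeR adjusted p = 0.000172) and 3.22-fold against stage 1 (1.69 ± 0.20, edgeR adjusted p = 1.85e-05). Between the wild-type groups it differed by 0.43 (edgeR adjusted p = 0.103), and was called at 0.56 (edgeR adjusted p = 0.0317) without replicate 4 of the stage 3 wild type.

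*CRH1* encodes a transglycosylase that links chitin to glucan. It was at 343, 329.7 and 335 CPM at stage 1, at 365, 346, 347 and 311 in the stage 3 wild type and at 659.7, 630.2 and 528 in the mutant. Only the mutant stood apart. *CRH1* rose 1.77-fold against the stage 3 wild type (log2 fold change 0.82 ± 0.10 SE, edgeR adjusted p = 6.17e-05) and 1.80-fold against stage 1 (0.85 ± 0.11, edgeR adjusted p = 4.56e-05). The difference between the wild-type groups was 0.03 with an interval of -0.20 to 0.25.

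*NCW2* encodes a GPI protein with a part in the assembly of chitin and glucan. It was at 133, 109 and 132 CPM at stage 1, at 189.6, 237, 199 and 185 in the stage 3 wild type and at 363, 319 and 291 in the mutant. The groups did not overlap, and the level went up at each step. *NCW2* rose 1.60-fold in the mutant against the stage 3 wild type (log2 fold change 0.68 ± 0.12 SE, edgeR adjusted p = 0.000528), 2.61-fold against stage 1 (1.38 ± 0.13, edgeR adjusted p = 2.36e-06) and 1.63-fold from stage 1 to the stage 3 wild type (0.70 ± 0.12, edgeR adjusted p = 0.00119).

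*SED1* encodes a major structural GPI protein of the wall, known for its abundance in stationary cells. It was at 3797, 4301 and 3712 CPM at stage 1, at 3531, 3496, 2699.5 and 2305 in the stage 3 wild type and at 5096, 4553 and 3984 in the mutant. The mutant overlapped with stage 1, and the stage 3 wild type was below both. *SED1* rose 1.51-fold against the stage 3 wild type (log2 fold change 0.60 ± 0.17 SE, edgeR adjusted p = 0.0124), but at 0.49 (edgeR adjusted p = 0.0283) it was not called without replicate 4 of that group. Against stage 1 its log2 fold change in the mutant was 0.21 (interval -0.18 to 0.59, edgeR adjusted p = 0.368), and between the wild-type groups it was -0.39 (interval -0.75 to -0.03, edgeR adjusted p = 0.104).

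*CWP1* encodes a GPI mannoprotein found at birth scars. It was at 233, 265 and 243 CPM at stage 1, at 226, 262, 276 and 196 in the stage 3 wild type and at 295, 339 and 449.8 in the mutant. The mutant lay above the others by a small margin apart from replicate 3. *CWP1* rose 1.51-fold against the stage 3 wild type (log2 fold change 0.59 ± 0.15 SE, edgeR adjusted p = 0.00588) and 1.46-fold against stage 1 (0.55 ± 0.16, edgeR adjusted p = 0.0115). Both calls rested on mutant replicate 3: without it the log2 fold changes were 0.44 (edgeR adjusted p = 0.0281) and 0.40 (edgeR adjusted p = 0.0383). For the wild-type groups it was -0.04 with an interval of -0.36 to 0.27.

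**Figure D2:**
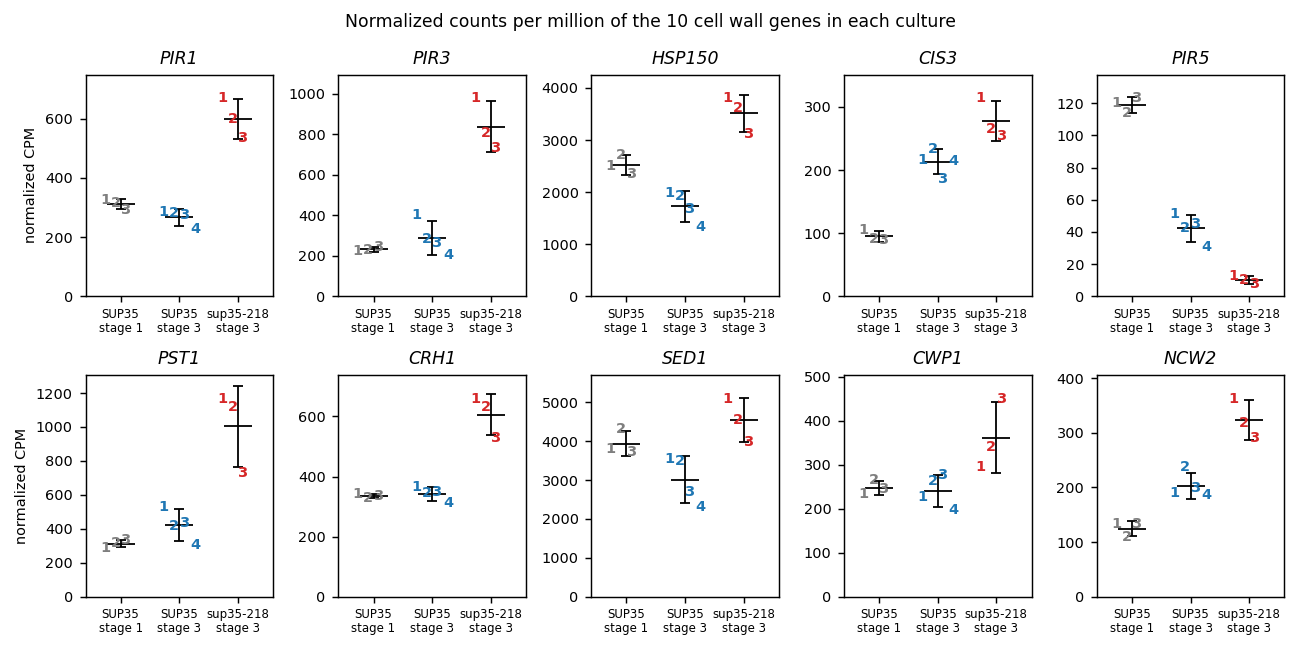
Normalized CPM of the 10 genes in each of the 10 cultures, 1 panel per gene, with each point a culture marked by its replicate number and bars for the mean and SD of the group. The mutant cultures lie above both wild-type groups in 8 panels, overlap with stage 1 for *SED1* and lie below all others for *PIR5*.

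Against stage 1, the mutant had 7 of the 10 genes higher and 1 lower, while 14.7% of all genes were called higher, 16.5% lower and 31.2% in either direction. *HSP150* and *SED1* were the 2 not called. The groups did not overlap for 9 of the 10 genes, as for 56.5% of all genes, and the median log2 fold change was 0.90 against 0.04 over all genes. Between the wild-type groups, where the allele was the same, 2 genes were called higher (*CIS3* and *NCW2*) and 2 lower (*PIR5* and *HSP150*), while 7.21% of all genes were called higher, 6.63% lower and 13.8% in either direction. Here 6 of the 10 did not overlap, as did 33% of all genes, and the median log2 fold change was -0.01 against 0.00 over all genes. The 3 comparisons share their groups in pairs, so their values stand side by side without a test of their likeness.

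**Figure D3:**
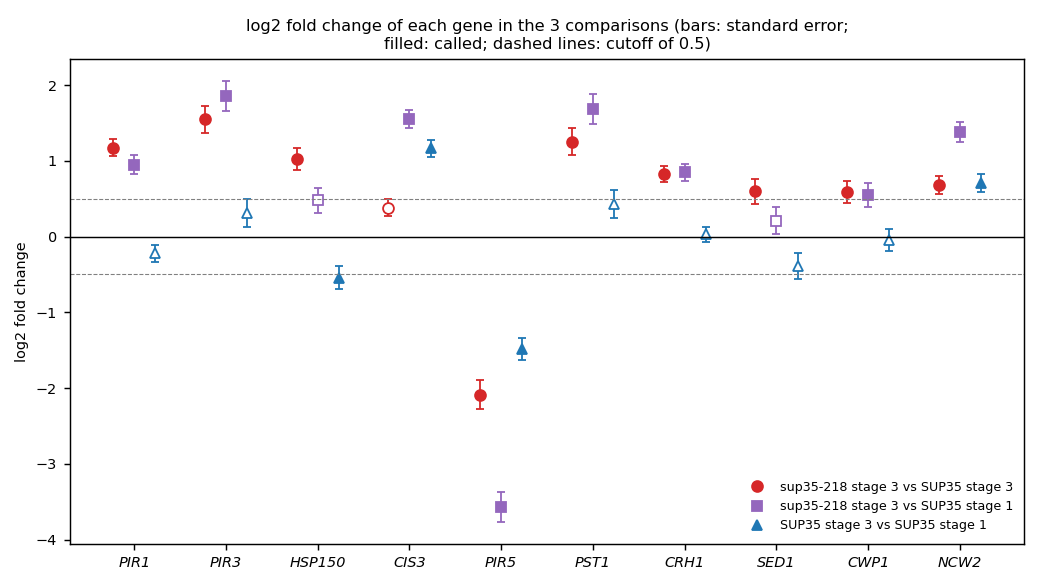
Log2 fold changes of the 10 genes in the 3 comparisons, from edgeR's quasi-likelihood fit, with standard errors as bars, filled where the gene was called, and with dashed lines at the size required. *PIR5* is below 0 in all 3 and called in each, and of the 5 genes above 0 in all 3 (*PIR3*, *CIS3*, *PST1*, *CRH1* and *NCW2*) *NCW2* is called in each.

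Per kilobase of gene, which allows levels to be compared between genes, *SED1* and *HSP150* were the highest of the 10 in every group. *SED1* averaged 3871, 2958 and 4468 CPM per kilobase at stage 1, in the stage 3 wild type and in the mutant, the 11th, 18th and 14th highest of 5856 genes, and *HSP150* averaged 2030.0, 1392 and 2830.2. The median over all genes was 65.4 to 67.8. *PIR3* averaged 237, 294 and 857 CPM per kilobase and so moved from the 814th to the 150th highest level between stage 1 and the mutant, while *PIR5*, at 138, 49.0 and 11.6, went from the 1493rd to the 5531st. *PIR5* was the lowest of the 10 in every group, but at stage 1 it lay next to *CIS3* (131 to 154 CPM per kilobase against 132 to 142), with which it overlapped. In the mutant, *PIR1* averaged 586 and *CIS3* 406 CPM per kilobase, and *CRH1*, *NCW2*, *CWP1* and *PST1* averaged 398, 424, 502 and 752.

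The make-up of the PIR transcripts differed between the groups. Of the summed level per kilobase of the 5 genes, *HSP150* made up 71.3% ± 1.64 at stage 1 (SD, n = 3), 60.2% ± 1.70 in the stage 3 wild type (n = 4) and 60.4% ± 1.36 in the mutant (n = 3). *PIR3* made up 8.35% ± 0.782, 12.6% ± 1.95 and 18.2% ± 0.947, and *PIR1* 10.7% ± 0.439, 11.3% ± 0.811 and 12.5% ± 0.128. The share of *HSP150* was thus about the same in both stage 3 groups, while that of *PIR3* was highest in the mutant, without overlap. *CIS3* took 4.89% ± 0.502, 13.7% ± 2.30 and 8.66% ± 0.382, its largest share being in the stage 3 wild type, and *PIR5* took 4.85% ± 0.437, 2.12% ± 0.211 and 0.245% ± 0.0338. The shares are descriptions of the same counts and were not tested. All 10 genes together took 0.797% to 0.875% of the counts of a culture at stage 1, 0.532% to 0.773% in the stage 3 wild type and 1.05% to 1.35% in the mutant.

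**Figure D4:**
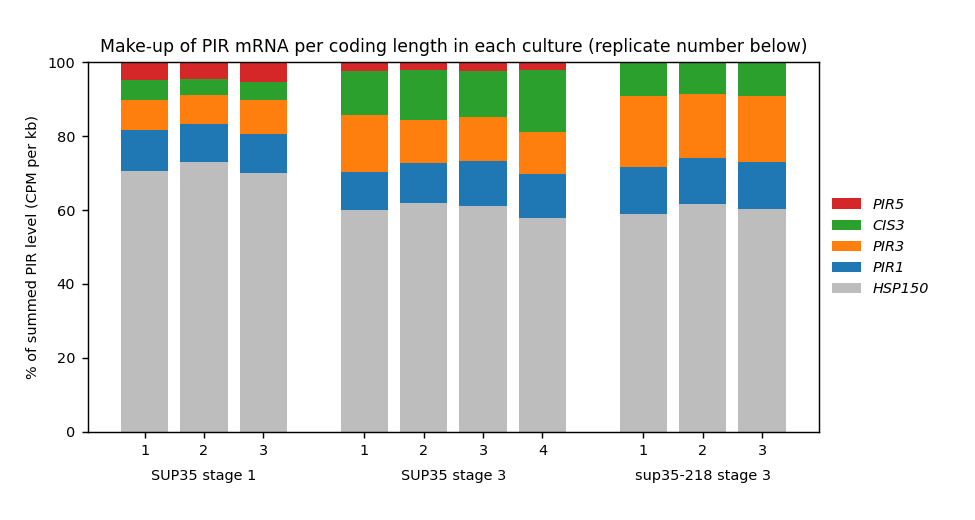
Share of the summed CPM per kilobase of the 5 PIR genes taken by each gene, in percent, 1 stacked bar per culture. *HSP150* takes the most in every culture, *PIR3* and *CIS3* take more at stage 3 than at stage 1, and *PIR5*, at 0.245% on average, is too thin to be seen in the mutant bars.

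Cultures of each stage 3 group differed in the same direction across many of the 10 genes. At stage 1 each culture was the lowest for 3 or 4 of them and the highest for 3 or 4. Replicate 4 of the stage 3 wild type was the lowest of its 4 cultures for 9 of the 10 genes, all but *CIS3*, whereas it was lowest for 32.3% of all genes. Replicate 1 was the highest for 7 (31.2% of all genes). In the mutant, replicate 1 was the highest and replicate 3 the lowest for 9 of the 10 genes (31.7% and 37.9% of all genes), with *CWP1* in the reverse order in both cases. The genes are not independent of one another in this, and the labels name no batch that separates these cultures.

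By the root mean square difference of centred log2 CPM over the 10 cultures, the genes most like *PIR1* were *DPI8* (0.120), *TRS65* (0.126) and *NCW1* (0.133), where the median over 5365 genes compared was 0.557. *NCW1* encodes a cell wall protein, and it rose by 0.89 on the log2 scale in the mutant against the stage 3 wild type (edgeR adjusted p = 5.28e-05). Those most like *PIR3* were *SUP35* itself (0.195), *ARG82* (0.245) and *MAL12* (0.257), against a median of 0.837. *ARG82* (YDR173C) is the gene next to *SUP35* (YDR172W). The likeness is a description over cultures that share 3 groups.

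Among relatives of the 10 genes, *SPI1*, a GPI protein related to *SED1*, and *SPS22*, of the *PST1* family, rose in the mutant against the stage 3 wild type (log2 fold changes 0.94 and 0.67), 2 of 7 relatives, and 0 of the 7 fell. *SPS2* had 0.68 without passing the test, and *ECM33* had 0.13, the paralog of *CWP1*, *CWP2*, -0.11, and the relatives of *CRH1*, *UTR2* and *CRR1*, -0.18 and -0.16. Between the wild-type groups *CWP2* rose by 0.92 and *UTR2* fell by 0.76. Against stage 1, 3 relatives were higher in the mutant and 1 lower, where 14.7% of all genes were higher and 16.5% lower.

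Wider lists of wall genes had smaller medians than the 10 genes. Of 20 further GPI proteins of the wall, 6 were higher and 1 lower in the mutant against the stage 3 wild type, with a median log2 fold change of 0.32; *SPI1* (0.94), *TOS6* (0.92), *GAS3* (0.81), a glucan-modifying family member, and *TIP1* (0.70), a cold-shock mannoprotein, led upward, and the flocculin *FLO11* (-0.88) fell. Of 14 soluble or non-anchored wall proteins 2 rose, the glucanases *EXG1* (0.83) and *SCW11* (0.73), and 0 fell (median 0.16). Of 11 genes that process PIR proteins 3 rose, the O-mannosyltransferases *PMT2* (0.67) and *PMT1* (0.57) and the mannosyltransferase *KTR3* (0.62), and 0 fell (median 0.09); *KEX2* was at -0.05. Against stage 1 these 3 lists had 6 higher and 1 lower, 1 and 2, and 2 and 1. Between the wild-type groups they had 3 and 3, 1 and 0, and 0 and 1.

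Other genes known to respond to the integrity pathway were mixed. Of 16 such genes outside the 10, 4 rose in the mutant against the stage 3 wild type and 1 fell, with a median log2 fold change of 0.24. The phosphatase *PTP2* (1.08), *RLM1* (0.90), the kinase homologue *KDX1* (0.89) and *CRG1* (0.58) rose, and the phosphatase *SDP1* fell by 1.37, both phosphatases being known to act on Slt2. Of the 11 not called, some are named here after their values were seen. *SLT2* (0.18), *PRM5* (0.31), the chitin synthase *CHS3* (0.02) and the glucan synthase genes *FKS1* (0.00) and *GSC2* (0.09) did not pass the test. Of 27 genes of the signalling pathway, which share several of these, 7 rose, led by the sensor *MTL1* (1.17), and 2 fell, *SDP1* and the GTPase-activating protein *BAG7* (-0.53), with a median of 0.13. Against stage 1 the counts were 5 higher and 1 lower for the responders and 4 and 4 for the pathway, and between the wild-type groups 1 and 1, and 2 and 3. In all of these lists the share called is to be read against the 10.7% higher and 12.6% lower of all genes in the mutant against the stage 3 wild type, the 14.7% and 16.5% against stage 1 and the 7.21% and 6.63% between the wild-type groups. Some genes stand on more than 1 list.

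**Figure D5:**
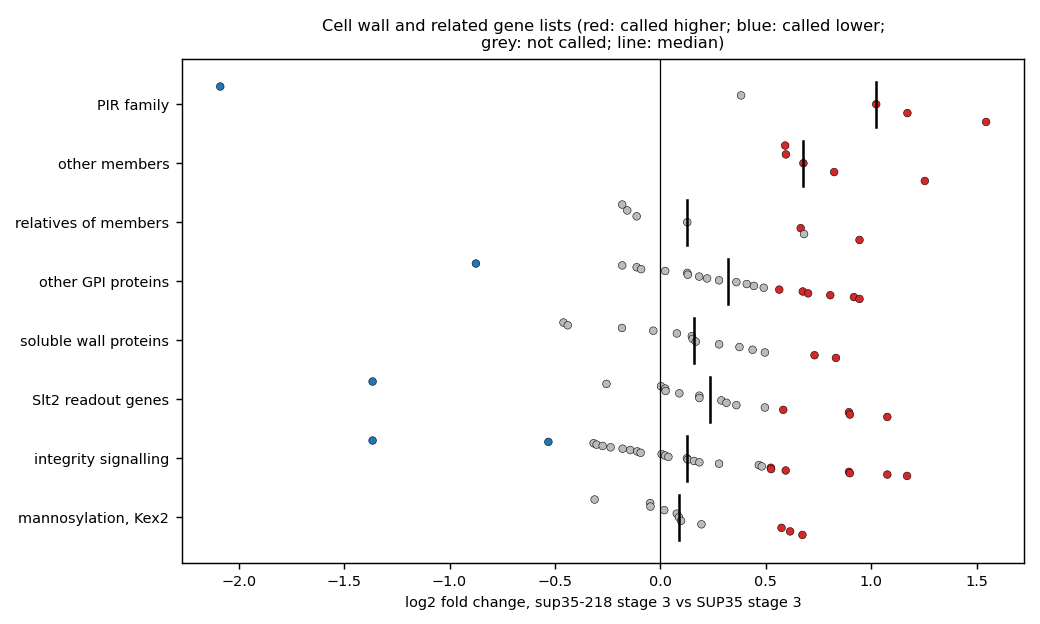
Log2 fold changes of each gene of the wider lists and of the 10 genes, sup35-218 at stage 3 against SUP35 at stage 3, 1 row per list, with genes called higher in red, called lower in blue and not called in grey, and a line at the median of each list. The 10 genes fill the top 2 rows, with medians of 1.02 (PIR family) and 0.68 (the other 5), and the medians of the rows beneath lie between 0.09 and 0.32.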

How the data were processed

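The authors deposited a table of raw read counts per gene for the 10 cultures. Libraries were made from total RNA with a directional kit and sequenced as paired reads of 150 bases, and the authors' processing notes name Trimmomatic, HISAT2, featureCounts and build R64. Their versions and the strand setting of the counting are not given in the sources used here. From the counts, 5856 of 6607 genes passed edgeR's filterByExpr (minimum count 10), libraries were scaled by TMM, and all 10 cultures in 3 groups were fitted with edgeR 4.0.16 (quasi-likelihood test, R 4.3.3), without covariates. CPM were normalized by the same factors. Ratios were compared by exact permutation. Sequences were read from RefSeq R64, in which 5924 gene IDs of the table matched an entry and 99.6% of these had the same start and end, and 683 did not match. Coding bases were aligned with Biopython 1.88.

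All 10 genes are named. From each other list at most the 4 called genes with the largest changes in each direction are named, with all relatives; *SLT2*, *PRM5*, *CHS3*, *FKS1*, *GSC2* and *KEX2* were added after their values were seen. The 3 genes most like *PIR1* and *PIR3* were taken among genes with a mean count of at least 50. The 10 genes, the lists and the tests were chosen with earlier results of these data known. Alternatives comprised DESeq2 1.42.0, 2 other scalings, filters, a replicate block, other thresholds and leaving out each culture. 1 gene list and 1 motif are not reported here. The script for the fit was tested on simulated data.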

Additional observations from a re-analysis of the deposited data

Results flagged for a closer look

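Among the 10 genes, 1 culture stood far from its group. *PIR1* was at 226 CPM in replicate 4 of the stage 3 wild type, while the other 3 cultures of that group were at 283, 282 and 275 CPM, a gap of 0.856 of the whole range, above Dixon's 95% critical value for 4 samples. The same replicate was the lowest of its group for 9 of the 10 genes. Only the stage 3 wild type has the 4 cultures that this test needs, and over the 10 genes tested chance flags about 1 in 20.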

How the results depend on the processing

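The counts of genes called depended mostly on the size required. With a log2 fold change over 1 in size, 4 of the 10 genes were higher in the mutant against the stage 3 wild type (8 before; 2.34% of all genes under the same rule), 4 against stage 1 (7 before; 3.01%), and between the wild-type groups 1 was higher and 1 lower (2 and 2 before; 0.734% and 1.33%). With a test against a log2 fold change of 0.5 (glmTreat), 5 were higher in the mutant against the stage 3 wild type (3.23% of all genes), and 1 was higher and 1 lower between the wild-type groups (0.70% and 1.47%). Leaving out single cultures gave 1 to 2 genes lower between the wild-type groups. DESeq2, its size factors, upper-quartile scaling, both filters and the fit on the 2 groups compared left the counts within 1.5 times, and upper-quartile scaling moved the median of all genes against stage 1 from 0.04 to 0.10 and called *HSP150* there (0.54). The log2 fold change of *CWP1* between the wild-type groups (-0.04) ranged from -0.12 to 0.041 over fits that each left out 1 culture, and was 0.0097 without stage 1 replicate 2 and 0.041 without replicate 4 of the stage 3 wild type. Whether the replicate numbers pair the cultures cannot be settled from so few cultures. Same-numbered deviations correlated at 0.03, 0.10 and 0.18 between mutant and stage 3 wild type, and at -0.00, -0.05 and -0.24 between mutant and stage 1. Between the wild-type groups the values were 0.41, -0.00 and -0.18. Not every culture correlated best with its own number, but mutant replicates 2 and 3 did so against the stage 3 wild type. With the replicate number as a block, 1 gene was lower between the wild-type groups, *CWP1* turned to 0.034 there, *SED1* and *CWP1* (0.49 and 0.50) in the mutant against the stage 3 wild type and *HSP150* between the wild-type groups (-0.44) were not called, and *PST1* was called there (0.54). The causes of these differences were not tested. The depth limits mainly *PIR5*, with 30 to 44 counts in a mutant culture.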
